A study of Mus musculus with 2 samples.

Results

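Pulmonary surfactant is made, stored and secreted by alveolar type 2 (AT2) cells, and 9 genes of that program were followed in droplet-based single-cell RNA sequencing of mouse alveolar organoids. The genes were taken by symbol from the gene rows of the deposited matrices, and all 9 were among the 27998 genes listed there. They are Sftpa1, Sftpb, Sftpc and Sftpd, which encode the surfactant proteins, together with Napsa, Lamp3, Abca3, Lpcat1 and Slc34a2, which encode proteins of lamellar bodies, of surfactant lipid synthesis and of phosphate uptake. AT2 cells were labeled in C57BL/6 SPC-CreERT2;R26R tdTomato mice, in which tamoxifen activates a Cre driven by the Sftpc promoter, so the cells that founded the organoids had been chosen for the activity of 1 of the 9 genes. Sorted labeled cells formed organoids in Matrigel beside stromal cells that had been cultured from lung, and the label text gives 2 weeks of co-culture, whereas the study itself names a later day of culture for the isolation of these cells. PBS was added to the organoids of the control library and IL-1β to those of the IL-1β library, with the same kinds of cells in both. Each condition is 1 library, so there is no test between conditions, and cells of a library are not replicates.

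Surfactant is a film of phospholipid and protein that lowers surface tension in the alveolus. SP-B and SP-C, the hydrophobic proteins from Sftpb and Sftpc, are cleaved from precursors and packed with phospholipid in lamellar bodies, the secretory organelles of AT2 cells. SP-A and SP-D, from Sftpa1 and Sftpd, are soluble collectins that bind microbes and take part in host defense. AT2 cells also give rise to the flat alveolar type 1 (AT1) cells, which do not make surfactant.

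The control library held 2101 barcodes and 33965848 unique molecular identifiers (UMIs), and the IL-1β library 3066 barcodes and 41220175 UMIs. Filters on genes and UMIs and a doublet caller left 2081 and 3058 cells. The caller marked 3 of 5142 cells (0.0583%), so doublets that it missed may remain in the data, and 11 barcodes occur in both libraries. Of the 3868 epithelial cells, 98.9% lay in clusters with 95% or more of the cells in a single library. A difference between the libraries and a difference between cell states therefore cannot be told apart by these clusters.

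A level was computed for each class of cells by adding up the UMIs of a gene and scaling them to 1000000 UMIs of that class (CPM, with an exact Poisson 95% interval). Ratios carry exact 95% intervals, and a gene was counted as past 1.5-fold only when its whole interval lay beyond 1.5-fold. All of these intervals cover counting error only.

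Cells were clustered without the 9 genes and without the companion genes described further on, and clusters were named here from marker lists, by a rule set after clusters had been seen. AT2-lineage cells (949 control, 1967 IL-1β) came from a control cluster led by Bex2, Bex4 and Acoxl and from 4 IL-1β clusters. The control cluster took the AT2-like name, and all 4 IL-1β clusters took the name of the primed AT2 state described in the study (pAT2-like). The names were merged, so AT2-lineage ratios between the libraries mainly set pAT2-like clusters against an AT2-like cluster. AT1-like cells (293 control, 376 IL-1β) came from a control cluster led by Pmp22, Spock2 and Fbln5 and an IL-1β cluster led by AW112010, Serpinb9 and Itgb6. DATP-like cells, named for the damage-associated transient progenitors between AT2 and AT1 cells, numbered 190 in the IL-1β library and 0 in the control library. Under 5 alternative settings 96 to 120 control cells also took that name and the control AT1-like class shrank to between 224 and 254 cells, so which control cells count as AT1-like depends on the setting. There were also 40 control and 2 IL-1β cycling cells, 796 control and 475 IL-1β stromal cells, and 42 cells led by mitochondrial transcripts that stayed unnamed. A cluster of 9 IL-1β cells led by Scgb3a1, Bpifa1 and Reg3g took the club cell name. The 10 AT2 markers, none of them among the 9 genes, all exceeded 10 CPM in AT2-lineage cells of both libraries. Their summed level there was 37897 CPM in control and 54944 in IL-1β, of which the highest single marker gave 22999 and 36311. The AT2 marker score, which weighs all 10 alike, was 0.56 in the control cluster and 0.21, 0.18, -0.16 and -0.24 in the 4 IL-1β clusters. The 8 macrophage markers summed to 2.72 CPM in control and 0.424 in IL-1β AT2-lineage cells, with 2 and 5 of them at 0.

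The plot of levels shows the whole set. The 9 genes together took 13.1% of all UMIs of control AT2-lineage cells and 10.1% of those of IL-1β AT2-lineage cells. Sftpc alone gave the most UMIs of any gene in both. The summed level was 0.767-fold of control in the IL-1β library (interval 0.766 to 0.769).

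**Figure D1:**
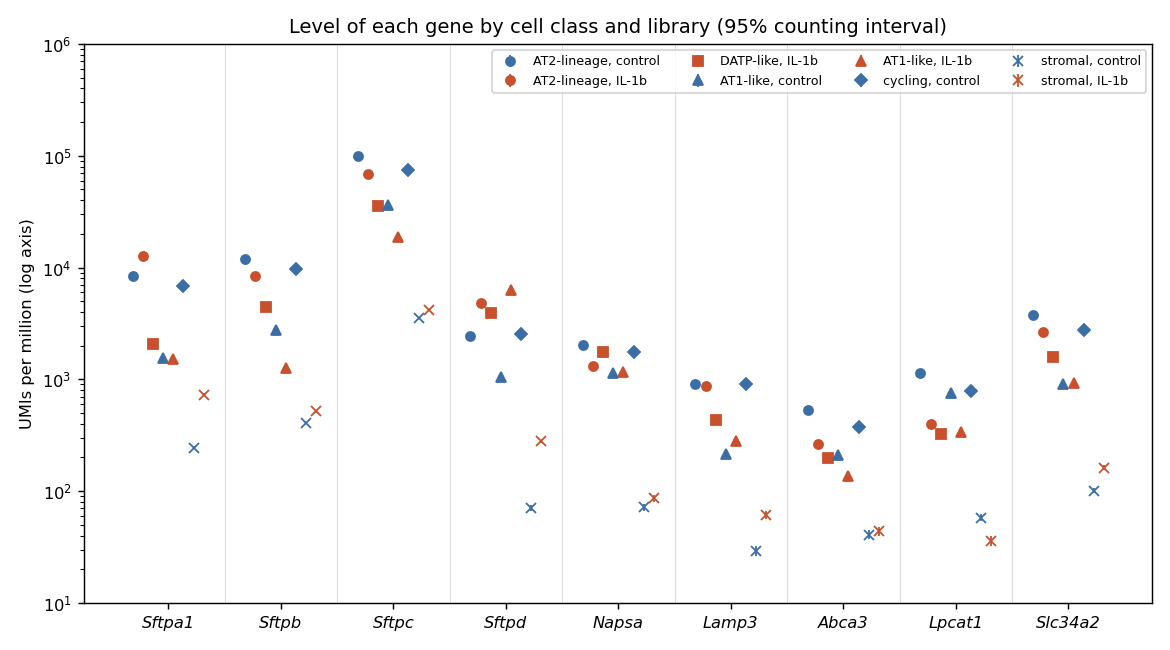
CPM (log axis) of each of the 9 genes, by cell class (marker shape) and library (blue control, red IL-1β), with exact 95% counting intervals that are mostly smaller than the markers; 1 library per condition. Stromal cells are lowest for every gene, and Sftpd is the gene whose red AT1-like marker lies above both AT2-lineage markers.

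Sftpa1 (ENSMUSG00000021789, chromosome 14, 41131782 to 41136452, plus strand, GRCm38) and Sftpd (ENSMUSG00000021795, chromosome 14, 41172214 to 41185149, minus strand) lie 35761 bases apart, with 2 annotated genes between them, Mbl1 and Gm7920. Sftpc (ENSMUSG00000022097, 70520949 to 70524081, minus strand) is elsewhere on chromosome 14. Sftpb (ENSMUSG00000056370) spans 72304610 to 72314371 of chromosome 6, plus strand. Napsa (ENSMUSG00000002204, chromosome 7, 44572380 to 44586862), Slc34a2 (ENSMUSG00000029188, chromosome 5, 53038081 to 53071664) and Abca3 (ENSMUSG00000024130, chromosome 17, 24351950 to 24410201) are on the plus strand, and genes on the opposite strand overlap all 3. How the counting used strand is not given in the sources used here, so reads of these genes and of their overlapping partners may not be fully separated. Lpcat1 (ENSMUSG00000021608, chromosome 13, 73467197 to 73516422, plus strand) and Lamp3 (ENSMUSG00000041247, chromosome 16, 19653378 to 19706375, minus strand) overlap no other annotated gene.

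Promoter sequences, 250 bases before to 50 after the RefSeq start (GRCm38.p6), were at hand for 6 of the 9 genes. Those of Sftpa1, Sftpb, Lamp3 and Lpcat1 are printed, a choice made with the ratios known. With IL-1β, Sftpa1 was past 1.5-fold higher in AT2-lineage cells, Lpcat1 was past 1.5-fold lower, and Sftpb and Lamp3 were not past 1.5-fold. The promoter of Abca3, a gene also past 1.5-fold lower, is not printed. Capitals mark matches on either strand to CAAGTG (a core of NKX sites), TTNNGNAA (C/EBP) or TNTTTAC (FOX), and an NF-κB motif was searched as well. None of these matches overlapped another.
Sftpa1 promoter, chr14:41131538-41131837, plus strand: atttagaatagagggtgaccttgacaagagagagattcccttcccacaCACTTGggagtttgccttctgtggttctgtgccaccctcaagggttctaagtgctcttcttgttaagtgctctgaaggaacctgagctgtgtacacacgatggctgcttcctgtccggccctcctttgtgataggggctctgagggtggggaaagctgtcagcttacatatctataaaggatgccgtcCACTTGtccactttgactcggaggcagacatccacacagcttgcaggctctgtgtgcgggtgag
Sftpb promoter, chr6:72304360-72304659, plus strand: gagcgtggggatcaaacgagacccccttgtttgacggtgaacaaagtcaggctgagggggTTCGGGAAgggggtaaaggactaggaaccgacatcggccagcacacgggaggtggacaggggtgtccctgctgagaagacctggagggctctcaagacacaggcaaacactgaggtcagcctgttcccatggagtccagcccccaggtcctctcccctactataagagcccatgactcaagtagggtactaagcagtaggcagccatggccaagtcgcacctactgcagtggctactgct
Lamp3 promoter, chr16:19706316-19706615, minus strand: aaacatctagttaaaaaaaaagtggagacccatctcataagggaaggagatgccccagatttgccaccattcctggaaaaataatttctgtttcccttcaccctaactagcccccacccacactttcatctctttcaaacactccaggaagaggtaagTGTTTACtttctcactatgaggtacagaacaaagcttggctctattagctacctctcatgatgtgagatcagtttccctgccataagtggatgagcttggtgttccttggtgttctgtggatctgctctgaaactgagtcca
Lpcat1 promoter, chr13:73466981-73467280, plus strand: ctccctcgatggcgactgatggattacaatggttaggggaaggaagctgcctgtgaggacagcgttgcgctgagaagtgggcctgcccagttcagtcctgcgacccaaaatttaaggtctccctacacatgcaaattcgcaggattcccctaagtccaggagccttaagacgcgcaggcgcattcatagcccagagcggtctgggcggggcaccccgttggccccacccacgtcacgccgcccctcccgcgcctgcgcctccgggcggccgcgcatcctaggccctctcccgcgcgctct

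CAAGTG matched at 2 places in the Sftpa1 promoter and in no other of the 6, while 13.6% of 32851 promoters of the same length hold it. TTNNGNAA matched in the promoters of Sftpb and Slc34a2 (40.7% of all promoters) and TNTTTAC in that of Lamp3 (12.4%). The NF-κB motif matched in none of the 6, and 0.411% of all promoters hold it. Base composition split the set. The promoters of Abca3, Slc34a2 and Lpcat1 held 29, 30 and 25 CG dinucleotides, against 8 in Sftpb, 5 in Sftpa1, 0 in Lamp3 and a median of 7 over all promoters. The promoter used for Slc34a2 (chromosome 5, 53049103 to 53049402) lies inside the gene span given above. Its match and its CG count therefore belong to an internal RefSeq start. A match is a stretch of letters and not a measured binding site.

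Between the libraries, AT2-lineage cells differed by gene and not as a block. With IL-1β 2 of the 9 genes were past 1.5-fold higher, the collectins Sftpd and Sftpa1, and 3 were past 1.5-fold lower, Lpcat1, Abca3 and Napsa. Over the 10388 genes with at least 100 UMIs, 8.53% were past 1.5-fold higher, 4.09% past 1.5-fold lower and 12.6% in either direction. The median log2 ratio of the 9 genes was -0.52, beside 0.12 over all those genes. Scaling by the median of the ratios, which sets that 0.12 to 0, left 1 of the 9 genes past 1.5-fold higher (Sftpd) and put 6 past 1.5-fold lower, with Sftpb, Sftpc and Slc34a2 added. The shares of all genes under this scaling are not given, so these counts have nothing to be read against.

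Sftpd was at 2442 CPM in control AT2-lineage cells (interval 2416 to 2468) and at 4841 in IL-1β AT2-lineage cells (4813 to 4869), a ratio of 1.98 (1.96 to 2.01). Sftpa1 was at 8406 (8358 to 8455) and 12766 (12720 to 12811), a ratio of 1.52 (1.51 to 1.53). Both collectins were higher in the IL-1β library, and Sftpa1 only just cleared the threshold. Sftpa1 was past 1.5-fold under 11 of 19 alternative settings and higher under all 19, and Sftpd was past it under 18. These 19 include a setting that changes only stromal cells and so repeats the reported ratios, and another that changes only the fold.

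Of the hydrophobic proteins, Sftpc was at 99933 CPM (interval 99768 to 100099) in control and 68989 (68883 to 69095) in IL-1β AT2-lineage cells. Its ratio was 0.690 (0.689 to 0.692). Sftpb was at 11921 and 8453, a ratio of 0.709 (0.704 to 0.714). These 2 genes stayed close to each other. Sftpb gave 11.9 UMIs per 100 Sftpc UMIs in control AT2-lineage cells (11.9 to 12.0) and 12.3 in IL-1β AT2-lineage cells (12.2 to 12.3). This was not particular to Sftpb, since Slc34a2 gave 3.80 and 3.85 and Napsa 2.03 and 1.92. By contrast, Sftpa1 gave 8.41 and 18.5 and Sftpd 2.44 and 7.02.

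Among the lamellar body genes the largest differences were in lipid handling. Lpcat1, the acyltransferase that forms the saturated phosphatidylcholine of surfactant, was at 1134 CPM in control (interval 1116 to 1152) and 395.9 in IL-1β AT2-lineage cells (387.9 to 404.0), a ratio of 0.349 (0.340 to 0.358). Abca3, the transporter that moves phospholipid into lamellar bodies, was at 527 (515 to 540) and 265 (258 to 272), a ratio of 0.503 (0.486 to 0.520). Lpcat1 was past 1.5-fold lower under all 19 alternatives and Abca3 under 18. Napsa, the aspartic protease that cleaves the SP-B precursor, was at 2025 and 1327, a ratio of 0.655 (0.645 to 0.666). Its call held under 7 of 19 alternatives, although its ratio was below 1 under all 19.

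The remaining 2 genes moved less. Slc34a2, a sodium-phosphate cotransporter of the AT2 cell surface, was at 3794 and 2653 CPM, a ratio of 0.699 (0.691 to 0.707). Lamp3, a membrane glycoprotein of lamellar bodies also known as DC-LAMP, was at 918 (interval 902 to 934) and 878 (866 to 890), a ratio of 0.957 (0.936 to 0.978). Lamp3 was thus the member whose level differed least between the libraries in these cells, and its sign turned at a clustering resolution of 2.0, where its log2 ratio was 0.02.

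**Figure D2:**
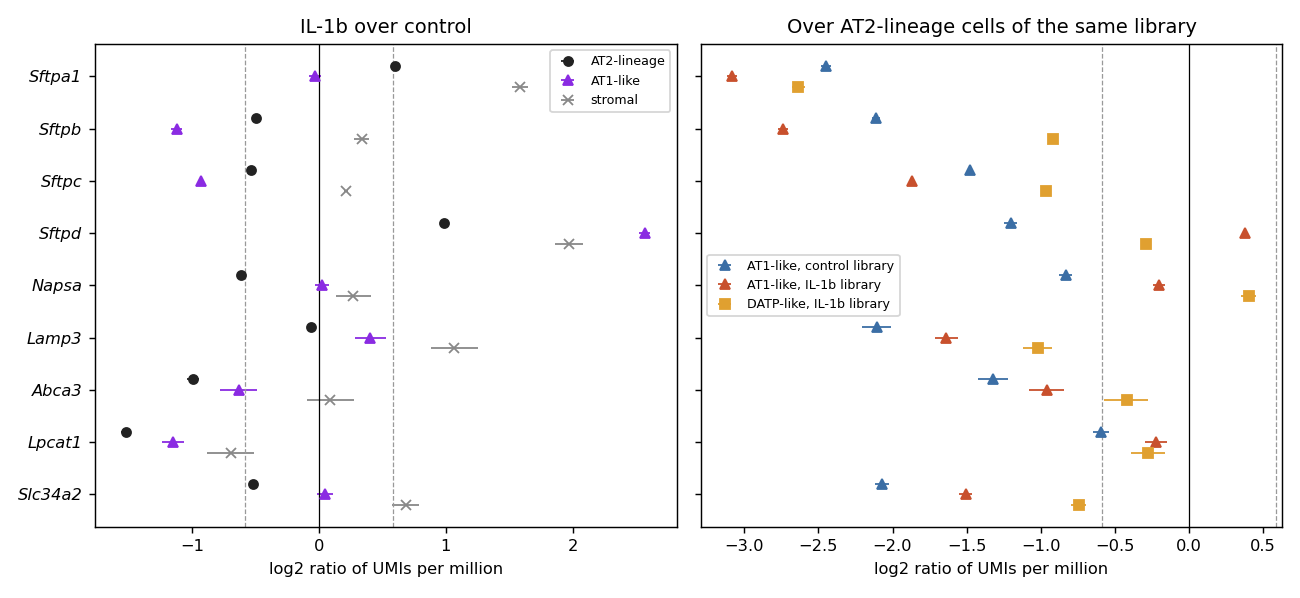
Log2 ratio of CPM with exact 95% counting intervals for the 9 genes; left, IL-1β over control in the AT2-lineage class, the AT1-like class and stroma; right, AT1-like and DATP-like cells over the AT2-lineage cells of their own library. Dashed lines mark 1.5-fold. On the left Sftpd lies to the right of 1.5-fold in all 3 classes. On the right it is the gene with a positive value in IL-1β AT1-like cells, at 0.38, where the median of all genes was 0.30.

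The 4 IL-1β clusters of AT2-lineage cells were not alike in their collectins. A cluster led by Dmkn, Spink5 and Gstm1 (722 cells) had the lowest Sftpd of the 4, 3301 CPM, and the highest Sftpc, 79837. A cluster led by Slc26a4, Cd14 and Ly6i (524 cells) had the highest Sftpd, 7126, and the lowest Sftpc, 55002, Sftpb, 5956, and Sftpa1, 8825. By marker score alone this cluster was closest to the DATP name (0.23, against 0.19 for its best AT2-lineage name), which it did not take because no DATP marker was among its 10 leading genes. Without this cluster, a choice made after seeing the data, the AT2-lineage log2 ratios were 0.74 for Sftpd, 0.75 for Sftpa1 and -1.55 for Lpcat1, and 4 of the 9 genes were past 1.5-fold, without Napsa. The share of all genes is not given for that choice. A cluster led by Cxcl5, Il4i1 and Pglyrp1 (209 cells), genes of neutrophil recruitment and antibacterial defense among them, had the highest Sftpa1, 17057, together with a high Sftpd, 6546. The cluster led by BC030867, Trf and Ly6d (525 cells) lay between the others, with Sftpa1 at 12999 and Sftpd at 4073. The highest of these 4 levels over the lowest was 2.16 for Sftpd, 1.93 for Sftpa1 and 1.63 for Sftpb, and it was 1.16 for Lpcat1, 1.26 for Slc34a2 and 1.27 for Lamp3. Lpcat1 was low in all 4, between 362 and 420 CPM against 1148 in the control cluster. These cluster levels include the 2, 5 and 6 control cells that fell into 3 of the 4 clusters.

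**Figure D3:**
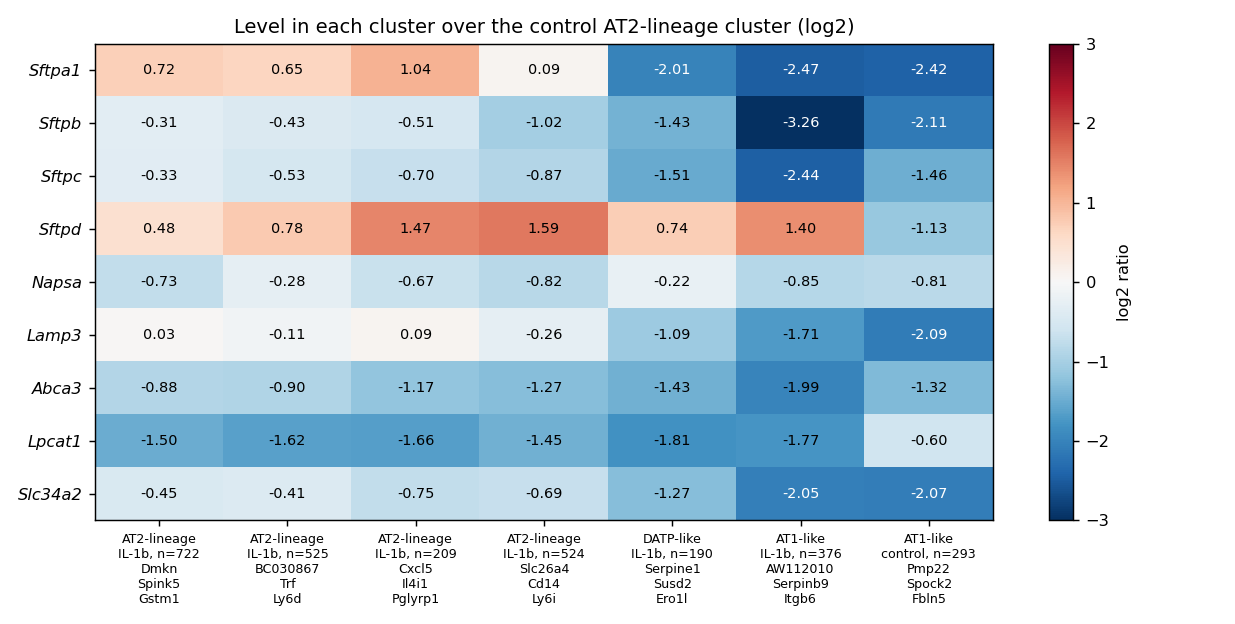
Log2 ratio of each gene's CPM in 7 clusters over the control AT2-lineage cluster (936 cells); columns give the class, the main library, the number of cells and the 3 leading genes. Only epithelial clusters of at least 50 cells are shown. Sftpd is above the control AT2-lineage cluster in all 6 IL-1β clusters shown, and Lpcat1 is between -1.81 and -1.45 in these 6 and at -0.60 in the control AT1-like cluster. In the 42 unnamed cells, 39 of them IL-1β and not shown, Lpcat1 was at 720 CPM and Abca3 at 543. The control AT2-lineage cluster had 1148 and 533.

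AT1-like cells carried less of most of the program than AT2-lineage cells of the same library. In the control library 8 of the 9 genes were past 1.5-fold lower in AT1-like cells, where 5.58% of 9063 genes were past 1.5-fold lower, 19.3% higher and 24.9% in either direction. Sftpa1 was at 1539 CPM there, a ratio of 0.183 (interval 0.179 to 0.188), Sftpb at 2757, a ratio of 0.231 (0.227 to 0.236), and Lamp3 at 213, a ratio of 0.233 (0.217 to 0.249). Sftpc was at 35963, a ratio of 0.360 (0.358 to 0.362). The exception was Lpcat1, at 752, with a ratio of 0.663 (0.638 to 0.689), and the next nearest was Napsa, at 1137, with a ratio of 0.561 (0.544 to 0.579). Lpcat1 was past 1.5-fold lower under 7 of 19 alternatives. The median log2 ratio of the 9 genes was -1.47, beside 0.39 over all genes. These ratios also depend on the cells held. With the 5% of cells with the highest doublet scores left out of each library, log2 ratios were -4.14 for Sftpa1 and -2.65 for Sftpc, against -2.45 and -1.47 as reported.

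With IL-1β 6 of the 9 genes were past 1.5-fold lower in AT1-like cells, where 6.34% of 10097 genes were past 1.5-fold lower, 14.1% higher and 20.5% in either direction. Sftpa1 had a ratio of 0.118 (interval 0.115 to 0.121), Sftpb of 0.150 (0.146 to 0.154) and Sftpc of 0.274 (0.273 to 0.276). The other 3 genes, Sftpd, Napsa and Lpcat1, were not past the threshold. Sftpd was higher in AT1-like than in AT2-lineage cells of this library, at 6282 against 4841 CPM, a ratio of 1.30 (1.28 to 1.31). Its log2 ratio of 0.38 was near the median of all genes in this comparison, 0.30, and above 57.3% of them. Scaled by the median of the ratios, the log2 ratio of Sftpd was 0.08. Sftpd was past 1.5-fold higher, with a log2 ratio of 0.62, when the DATP-scored cluster was left out of the AT2-lineage cells. Napsa had a ratio of 0.870 (0.846 to 0.895) and Lpcat1 of 0.858 (0.814 to 0.903). The 14 AT1 markers summed to 20951 CPM in control AT1-like cells, all of them above 10, and to 14076 in IL-1β AT1-like cells, 13 of them above 10. The 10 DATP markers summed to 3125 CPM in control and 4398 in IL-1β AT1-like cells.

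Set against each other across libraries, AT1-like cells, whose clusters also differed in AT1 and DATP marker scores, differed most in Sftpd. It was at 1060 CPM in control AT1-like cells (interval 1029 to 1092) and at 6282 in IL-1β AT1-like cells (6213 to 6352), a ratio of 5.93 (5.74 to 6.11). That ratio was higher than those of 99.3% of the 7984 genes with at least 100 UMIs. Sftpd was the only 1 of the 9 genes past 1.5-fold higher, a direction in which 4.20% of all genes lay. Lpcat1, Sftpb and Sftpc were past 1.5-fold lower, as were 3.22% of all genes (7.41% in either direction), at ratios of 0.452 (0.426 to 0.479), 0.460 (0.446 to 0.474) and 0.526 (0.522 to 0.531).

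The other 5 genes were not past the threshold. Intervals of Sftpa1 (1502 to 1577 and 1473 to 1542 CPM), Napsa (1105 to 1169 and 1126 to 1185) and Slc34a2 (873 to 930 and 907 to 961) overlapped. Those of Lamp3 and Abca3 did not, with ratios of 1.32 (interval 1.22 to 1.44) and 0.646 (0.584 to 0.715).

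These AT1-like ratios rest on which cells the control class held. With the 5% of cells with the highest doublet scores left out of each library, the control class had 211 cells and Sftpc was at 15867 CPM in them, against 35963 before. Sftpc and Sftpb then turned to 1.24 (interval 1.23 to 1.26) and 1.28 (1.23 to 1.34). Under the same setting Sftpa1, Lamp3 and Slc34a2 were past 1.5-fold higher, at 3.14 (2.96 to 3.33), 3.33 (2.90 to 3.83) and 2.92 (2.72 to 3.14). Sftpd was at 10.3 (9.83 to 10.8) and Lpcat1 at 0.518 (0.485 to 0.553). The calls of these last 2 genes held under all 17 alternatives that gave a value. Those of Sftpb and Sftpc held under 15 and 10 of the 17, and Lamp3 was past 1.5-fold higher under 7. The 17 include settings that change only stromal or AT2-lineage cells, which repeat these ratios by construction, and another that changes only the fold. With no cell filter, no doublet removal, resolution 0.5 or all variable genes, the log2 ratio of Sftpc was between -0.50 and -0.41 and that of Lamp3 between 0.82 and 0.89. Keeping only cells under 20000 UMIs, a choice made after seeing the data, also put Sftpa1, Lamp3 and Slc34a2 past 1.5-fold higher. With the Louvain algorithm or another random seed the IL-1β AT1-like cluster took the DATP name, and no AT1-like comparison between libraries could be made.

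The AT2 markers that do not belong to the set summed to 6041 CPM in control and 7664 in IL-1β AT1-like cells. Their part in the AT1-like levels was not tested. Sftpd gave 33.2 UMIs per 100 Sftpc UMIs in IL-1β AT1-like cells (interval 32.8 to 33.6), 7.02 in AT2-lineage cells of that library and 2.95 in control AT1-like cells (2.86 to 3.04).

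UMIs per cell were compared after every cell had been thinned to 4600 UMIs, which left no cell out. The median cell had 14086 UMIs before thinning in control and 11434 in IL-1β AT2-lineage cells, 12378 and 11625 in AT1-like cells, and 15724 and 14849 in stromal cells. Sftpc was found in every AT2-lineage, AT1-like, DATP-like and stromal cell, with and without thinning, so its presence told the classes apart in neither library. Its amount did, with a median of 454 UMIs in control and 314 in IL-1β AT2-lineage cells against 15 and 17 in stromal cells.

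Control AT1-like cells were spread widely in Sftpc, from 12 UMIs at the 5th percentile over a median of 63 to 524 at the 95th, and IL-1β AT1-like cells from 15 over 50.5 to 266. Sftpd had a median of 26 UMIs in IL-1β AT1-like cells, with a 5th percentile of 6, against 2 in control AT1-like cells and 1 in IL-1β stromal cells. The 5th percentile of IL-1β AT1-like cells thus equaled the 75th percentile (6) of control AT1-like cells. After thinning, 99.7% of IL-1β AT1-like cells had a Sftpd UMI (100% before), 80.2% of control AT1-like cells (90.4%), and 68.2% and 28.9% of stromal cells (94.9% and 58.7%), the class that should lack the gene.

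Abca3 and Lpcat1 were the genes with the largest differences in the share of AT2-lineage cells that showed a UMI. After thinning, 87.6% of control and 67.3% of IL-1β AT2-lineage cells had an Abca3 UMI, and 97.5% and 77.9% a Lpcat1 UMI. Unthinned shares were 98.0% and 89.5% for Abca3 and 99.6% and 93.3% for Lpcat1. Stromal cells had shares of 16.5% and 18.7% for Abca3 and 21.4% and 17.3% for Lpcat1 after thinning (45.1%, 48.2%, 51.8% and 42.3% without).

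**Figure D4:**
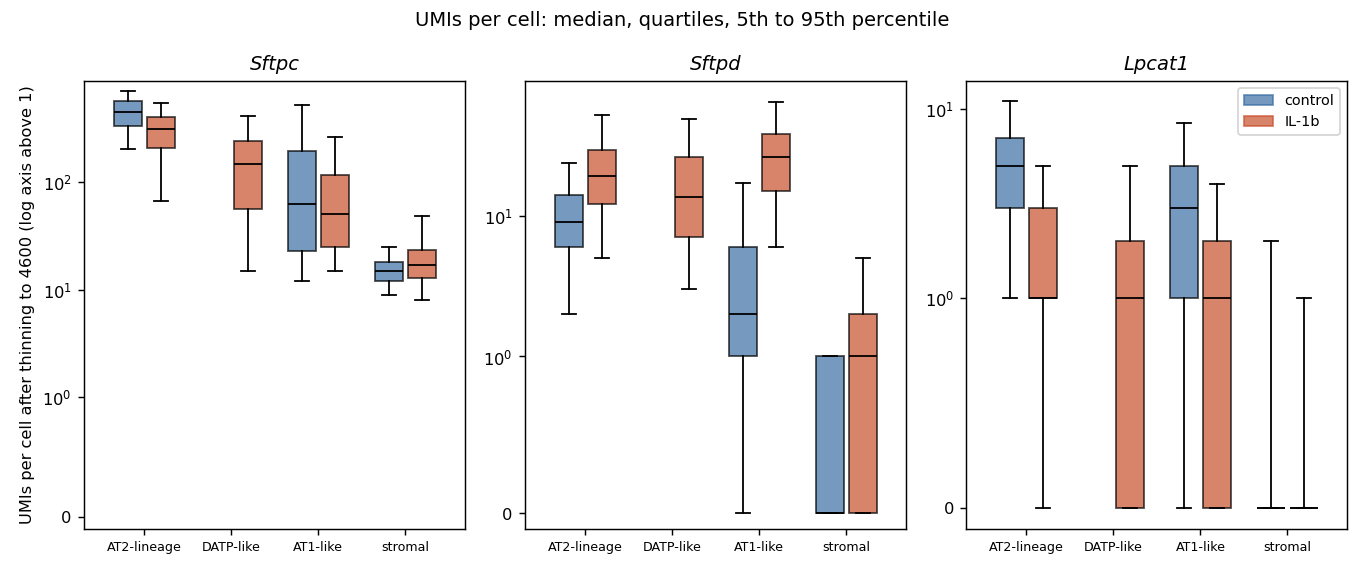
UMIs per cell of Sftpc, Sftpd and Lpcat1 after thinning each cell to 4600 UMIs (axis logarithmic above 1), by class and library; boxes give the quartiles and median and whiskers the 5th and 95th percentiles over cells. Sftpc is lower in AT2-lineage cells with IL-1β (median 314 against 454), whereas Sftpd has its highest median (26) in IL-1β AT1-like cells, whose box overlaps that of IL-1β AT2-lineage cells.

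Some AT1-like cells had no more Sftpc than stromal cells, and the 95th percentile of stromal cells of the same library (25.25 UMIs in control, 49 in IL-1β), chosen after these values had been seen, was used to describe them. It held 87 of 293 control and 185 of 376 IL-1β AT1-like cells. These shares are not comparable between libraries, since 96 of the 376 IL-1β cells lay under the control limit and 128 of the 293 control cells under the IL-1β limit. In these low-Sftpc cells of the IL-1β library Sftpd had a mean of 23.7 UMIs, against 1.55 in IL-1β stromal cells, while Sftpa1 (3.72 against 3.93) and Sftpb (2.88 against 2.97) were near the mean of all stromal cells. The limits and stromal means include the sub-cluster led by Cldn18, Ager and Cd74 described further on, and were not recomputed without it. Without it, IL-1β stromal cells had Sftpa1 at 553 CPM instead of 731 and Sftpb at 422 instead of 516. In the low-Sftpc control cells Sftpd had a mean of 1.94, against 0.363 in control stromal cells. Napsa and Lpcat1 were also above the stromal mean in low-Sftpc cells of both libraries. Napsa had means of 3.23 in control and 4.19 in IL-1β cells, against 0.353 and 0.552, and Lpcat1 of 2.46 and 1.29, against 0.274 and 0.200. Abca3 also lay above the stromal mean in both (0.483 against 0.195 in control, 0.519 against 0.227 in IL-1β cells). Lamp3 (0.924 against 0.328) and Slc34a2 (2.37 against 0.903) did so in IL-1β cells, whereas in control cells they were at 0.126 against 0.121 and 0.471 against 0.465.

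Within AT2-lineage cells the genes did not vary from cell to cell as 1 unit. Over the 36 pairs of the 9 genes, the correlation of log2 thinned UMIs had a median of 0.09 in both libraries, from -0.20 to 0.52 in control and from -0.21 to 0.56 in IL-1β cells. Sftpb and Sftpc had an r of 0.50 in control and 0.56 in IL-1β cells, and Sftpb and Napsa 0.52 and 0.38. Sftpd and Sftpb were at 0.26 in control and -0.21 in IL-1β cells. The IL-1β cells pool 4 clusters, and the one with the highest Sftpd (7126 CPM) had the lowest Sftpb (5956). The one with the lowest Sftpd (3301) had the highest Sftpb (9701). No correlation was computed within a cluster, so differences between clusters and between cells of a cluster are not separated in these values. Cells of a class share their library, these values have no p, and at this depth low correlations of the weaker genes cannot be read.

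DATP-like cells, all of them from the IL-1β library under the naming used here, had more Sftpb and Sftpc than the AT1-like cells of that library. Relative to IL-1β AT2-lineage cells 5 of the 9 genes were past 1.5-fold lower, with 2.00% of 9813 genes past 1.5-fold lower, 5.96% higher and 7.96% in either direction. Sftpa1 was lowest against AT2-lineage cells, at 2056 CPM and a ratio of 0.161 (interval 0.156 to 0.166), while Sftpc and Sftpb had ratios of 0.513 (0.509 to 0.517) and 0.530 (0.519 to 0.541). Lamp3 had a ratio of 0.493 (0.459 to 0.527) and Slc34a2 of 0.597 (0.576 to 0.619). The other 4 were not past the threshold, among them Napsa, which at 1753 CPM was above AT2-lineage cells with a ratio of 1.32 (1.27 to 1.37). The 40 control cycling cells had levels of all 9 genes between 69.8% and 105% of those of control AT2-lineage cells.

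Across classes and libraries Sftpa1 ranked from IL-1β AT2-lineage cells (12766 CPM) through control AT2-lineage (8406), cycling (6856) and DATP-like cells (2056) to both AT1-like groups, which did not differ beyond their intervals, and then to IL-1β and control stromal cells (731 and 244). Sftpd ranked otherwise, from IL-1β AT1-like cells (6282) through IL-1β AT2-lineage (4841) and DATP-like cells (3960) to cycling (2569) and control AT2-lineage cells (2442), whose intervals met (2466 to 2674 and 2416 to 2468), and then to control AT1-like cells (1060). For Lpcat1 every control epithelial class was above every IL-1β epithelial class. Control AT2-lineage, cycling and AT1-like cells were at 1134, 792 and 752, and IL-1β AT2-lineage, AT1-like and DATP-like cells at 396, 339 and 327, the last 2 with overlapping intervals. For Abca3 the control AT1-like (211) and DATP-like cells (198) overlapped.

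Stromal cells are not known to make surfactant, and their levels are given as a background measured in the same libraries, whose origin was not tested. For Abca3 and Lpcat1 the proportion to Sftpc was above that of AT2-lineage cells in both libraries. Per 100 Sftpc UMIs, control and IL-1β stromal cells gave 1.15 and 1.05 Abca3 UMIs, against 0.528 and 0.384 in AT2-lineage cells. Lpcat1 gave 1.63 and 0.867, against 1.13 and 0.574. Slc34a2 departed the other way in the control library, with 2.83 against 3.80, and gave 3.92 against 3.85 in the IL-1β library. In the control library 7 of the 9 genes were at 2.66% to 3.57% of the AT2-lineage level, and Abca3 and Lpcat1 were at 7.76% and 5.11%. In the IL-1β library the range of the 7 was 5.73% to 6.98%, with 16.4% and 9.06% for Abca3 and Lpcat1. Leaving out a stromal sub-cluster led by Cldn18, Ager and Cd74 (15 control and 20 IL-1β cells), a choice made after seeing the data, brought Sftpa1 to 2.65% and 4.33% and Abca3 to 7.03% and 14.1%.

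Between the libraries 3 of the 9 genes, Sftpd, Sftpa1 and Lamp3, were past 1.5-fold higher in IL-1β stromal cells, beside 4.22% of 10059 genes, and 0 were past 1.5-fold lower, beside 14.0% (18.3% in either direction). Their ratios were 3.92 (interval 3.64 to 4.22), 2.998 (2.88 to 3.13) and 2.10 (1.84 to 2.39). Per 100 Sftpc UMIs, stromal and AT2-lineage cells gave 6.73 and 7.02 Sftpd UMIs in the IL-1β library and 1.99 and 2.44 in the control library. Sftpa1 gave 17.7 and 18.5 in the IL-1β library and 6.84 and 8.41 in the control library. Both collectins were thus higher against Sftpc with IL-1β in stromal cells too. In the control library their stromal values (intervals 1.87 to 2.12 and 6.60 to 7.09) lay below those of AT2-lineage cells.

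Companion lists put the 9 genes beside the rest of the surfactant machinery in AT2-lineage cells. These lists were written with earlier results of these data known, and the counts stand beside the 8.53% of all genes past 1.5-fold higher and the 4.09% past 1.5-fold lower. A count of 1 or 2 genes in lists this short cannot be told apart from those shares. Of 9 transcription factors present in the files 0 were past 1.5-fold higher and 1 was past 1.5-fold lower, Etv5, which maintains AT2 identity, at 295 and 87.6 CPM with a ratio of 0.297 (interval 0.281 to 0.313). Etv5 was also among the AT2 markers. Foxa1 had a ratio of 0.705 (0.629 to 0.792), and Cebpb (1.56, 1.45 to 1.67) and Klf5 (1.29, 1.16 to 1.44) had the highest ratios. Cebpb was at 79.8 and 124 CPM in control and IL-1β AT2-lineage cells and at 992 and 909 in stromal cells. Whether its AT2-lineage levels come from the AT2-lineage cells was not tested. The median log2 ratio of the list was -0.08. Cebpd, also listed, was not analysed here.

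Lipid synthesis was the list with the most genes past the threshold. Of its 17 genes with at least 100 UMIs, 5 were past 1.5-fold lower and 0 higher (4.09% and 8.53% of all genes), with a median log2 ratio of -0.32 beside 0.12. Scd1, a fatty acid desaturase, was at 17643 and 5250 CPM, a ratio of 0.298 (interval 0.296 to 0.300), and Fasn, fatty acid synthase, at 1527 and 597, a ratio of 0.391 (0.383 to 0.399). The other 3, named after their values were seen, were Gpam (0.420), Acly (0.452) and Elovl1 (0.472). At the other end stood Cept1 (1.47, 1.35 to 1.60) and Agpat2 (1.15, 1.08 to 1.23). The 12 genes not past the threshold ran from Srebf1 (0.640) to Cept1. They included Chka (0.850), Pcyt1a (0.857), Pemt (0.954) and Chpt1 (1.14), also named after their values were seen. The 5 lower genes therefore do not stand for the whole list.

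Protein processing and lamellar body traffic had 2 of 14 genes past 1.5-fold higher and 0 lower (8.53% and 4.09% of all genes), with a median log2 ratio of 0.17 beside 0.12. They were Ctsh, a cathepsin that trims the SP-B and SP-C precursors, at 541 and 1068 CPM with a ratio of 1.97 (interval 1.92 to 2.02), and Lyst, a regulator of lysosome-related organelles, at 4.29 and 8.65 with a ratio of 2.02 (1.505 to 2.74). Nedd4l (0.675, 0.5996 to 0.761) and Lrrk2 (0.756, 0.716 to 0.799) had the lowest ratios.

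Secretion, uptake and turnover had 2 of 14 genes past 1.5-fold higher and 0 lower (8.53% and 4.09% of all genes), with a median of 0.14 beside 0.12. Pltp, a phospholipid transfer protein, had a ratio of 4.24 (interval 2.64 to 7.15) at 1.43 and 6.06 CPM, and Csf2rb, a subunit of the GM-CSF receptor, of 2.14 (1.65 to 2.81). Pltp was at 77.0 and 212 CPM in stromal cells of the 2 libraries, so its AT2-lineage levels were a small part of the stromal ones, and whether they come from the AT2-lineage cells was not tested. Prdx6 (0.845) and Vamp2 (0.868) were lowest.

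Among relatives of the 9 genes in sequence or function, 2 of 13 were past 1.5-fold higher and 0 lower (8.53% and 4.09% of all genes), with a median of 0.15 beside 0.12. Cd68, of the LAMP family, was at 7.36 and 40.6 CPM with a ratio of 5.51 (4.49 to 6.82 as its interval), and Lpcat4 at 3.36 and 15.2 with a ratio of 4.53 (3.33 to 6.28). In stromal cells Cd68 was at 9.89 and 17.0 CPM and Lpcat4 at 5.83 and 4.76, levels of the same order as in AT2-lineage cells. Lpcat3 had a ratio of 0.895 (0.837 to 0.956), beside the 0.349 of Lpcat1. Lamp1 and Lamp2 had ratios of 1.11 and 0.851, and the phosphate transporters Slc20a1 and Slc20a2 of 0.605 (0.455 to 0.804) and 0.685 (0.549 to 0.855). Mbl1, the collectin gene between Sftpa1 and Sftpd, had a ratio of 1.44 whose interval (0.996 to 2.11) held 1.

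**Figure D5:**
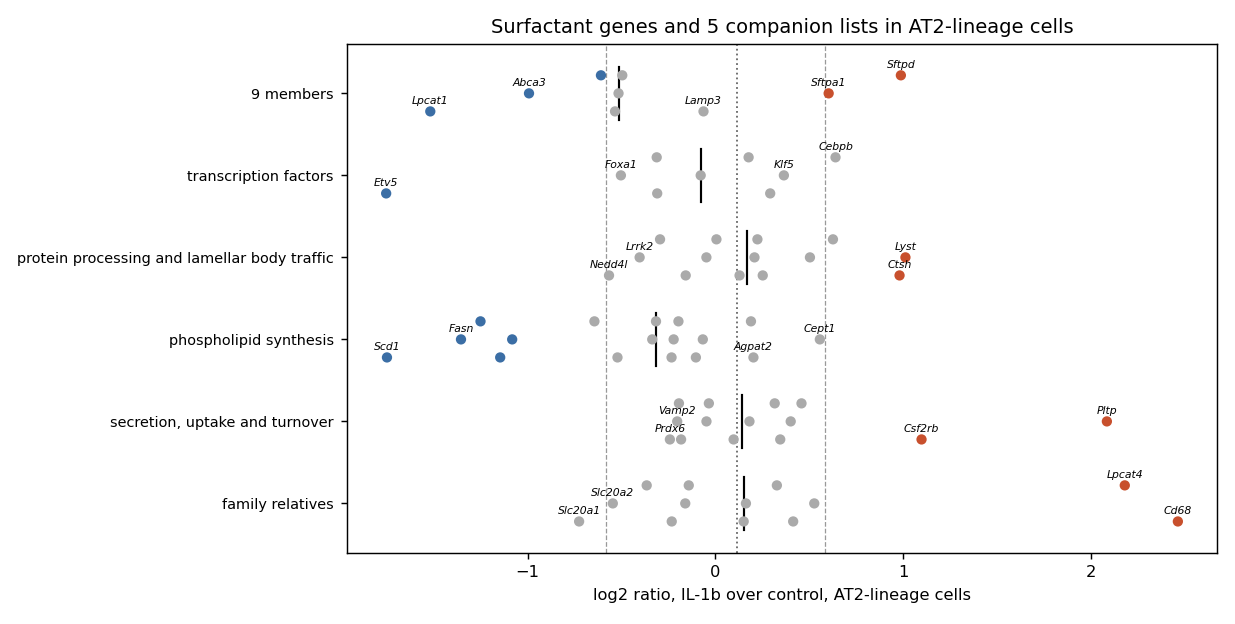
Log2 ratio of IL-1β over control in AT2-lineage cells for the 9 genes and for the companion genes with at least 100 UMIs; red, past 1.5-fold higher; blue, past 1.5-fold lower; gray, not past. Black bars are list medians, the dotted line is the median of all genes (0.12) and dashed lines mark 1.5-fold. Of the 5 companion lists, blue points lie only among phospholipid synthesis (5, with 12 gray) and transcription factors (1, with 8 gray).

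Patterns over 17 clusters of at least 50 cells (8 epithelial and 9 stromal) were used to find the genes most like each of the 9, among 2877 genes. Because the clusters split mainly into epithelial and stromal, all of these correlations were high, and they are descriptions without a test. The genes most like Sftpd were H2-Ab1 (Pearson's r of 0.989), Gclc (0.987) and H2-Aa (0.986), and H2-Ab1 and H2-Aa encode the chains of an MHC class II molecule. Sftpa1 was most like Lyz2, Pla2g1b and Mlc1 (0.985 each), and Sftpb most like Cxcl15 (0.995), Slco4c1 (0.991) and Atp6v1c2 (0.988). Lyz2, Mlc1, Cxcl15 and Egfl6 were among the AT2 markers. Sftpc and Abca3 shared Ppp1r14c (0.994 and 0.978), Sftpc and Slc34a2 shared Sfta2 (0.992 and 0.991), and Lamp3 and Slc34a2 shared Egfl6 (0.993 and 0.991) and Tc2n (0.989 and 0.992). Abca3 was also like Elovl1 (0.977), Napsa was most like Mal (0.995), and Lpcat1 most like Myo5c (0.982).

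Over the 8 epithelial clusters alone, the highest correlation between pairs of the 9 genes was that of Sftpb and Sftpc (r of 0.97) and the lowest that of Sftpd and Lpcat1 (-0.71). Sftpa1 and Sftpd, neighbors on chromosome 14, had an r of 0.34, whereas Sftpa1 and Lamp3 had 0.96.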

How the data were processed

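Single Cell 3' libraries (10x Genomics) were analysed from 1 control and 1 IL-1β organoid culture. The authors deposited raw UMI counts made with Cell Ranger on GRCm38 (the submitters' processing notes also list mm9), and the deposited gene and barcode lists (other text) name the rows and columns. Cells needed over 500 genes, under 7000 genes and over 2000 UMIs, and scrublet was run per library as the authors describe (score 0.7). Counts were scaled to 10000, logged and reduced over 1348 variable genes to 50 components and 15 neighbors (scanpy 1.11.5), and clustered with Leiden (leidenalg 0.10.2, resolution 1.0), first to set stromal cells aside. A cluster took the name with the highest mean log2 fold of its markers (pseudocount 10 CPM), with at least 3 markers up, and AT1 and DATP names needed a marker among the 10 leading genes. The 9 genes, the marker and companion lists, the 1.5-fold rule and the rule for named genes (all members, the 2 highest and 2 lowest of a list) were chosen with earlier results of these data known. Gene positions are from GENCODE M21. The intervals were tested on simulated Poisson counts, the model that they assume. The simulation had no variation between cells or libraries and no errors of cell naming, so it bears on counting error only. Alternatives varied the cell filter, doublets, clustering, scaling and fold. Each total came from raw counts, and the 95% intervals cover counting error only.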

Additional observations from a re-analysis of the deposited data

Results flagged for a closer look

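Lamp3 went in opposite directions in the AT2-lineage and AT1-like cells. Its IL-1β over control ratio was 0.957 in AT2-lineage cells, where the exact interval lay below 1, and 1.32 in AT1-like cells, where it lay above 1. With 1 library per condition this difference between the classes was not tested. The AT2-lineage value was above 1 at a clustering resolution of 2.0 (log2 ratio 0.02), and the AT1-like value ranged from 0.30 to 1.73 on the log2 scale over 17 alternatives.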

How the results depend on the processing

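No paired analysis was possible because each condition has 1 library, and no replicate could be left out for the same reason. Of 819 values of the 9 genes under the alternatives, 420 stayed within the interval of the reported value and 397 moved outside it, 13 of these with the other sign for genes not past 1.5-fold (Sftpa1 in AT1-like cells most often), and 2 genes past 1.5-fold reversed. Some alternatives leave the cells and scaling of a comparison as reported, and their values stay within the interval by construction. With the highest-scoring 5% of cells removed, the AT1-like log2 ratios of Sftpb and Sftpc turned to 0.36 and 0.32. The 5 genes past 1.5-fold in AT2-lineage cells became 3 under that setting, with Louvain, with each library clustered separately and with random seed 1, and 1 at 2-fold, and they were 7 (1 higher, 6 lower) with the median-of-ratios size factor or when scaled without the members, mitochondrial and ribosomal protein genes. The 3 in stromal cells became 5 with the median-of-ratios size factor and with the mean of the cells' own CPM, and 7 with cells under 20000 UMIs, an alternative chosen after seeing the data. The log2 ratio of the summed genes in AT2-lineage cells, -0.38 as reported, was -0.50 with the median-of-ratios size factor, -0.29 at resolution 2.0, -0.30 without the DATP-scored cluster (also chosen after seeing the data), -0.33 with cells under 20000 UMIs, -0.35 at resolution 0.5, without doublet removal, without the highest-scoring cells, with all variable genes and with genes centered by library, -0.37 with separate clustering and with random seed 1, and -0.38 with no cell filter, Louvain and the mean of the cells' own CPM. The causes of these changes were not tested. DATP-like cells could not be compared between libraries as reported. Under 5 alternatives at least 50 control cells took that name (96 to 120 cells). There 3 to 7 of the 9 genes were past 1.5-fold, with Lpcat1 among them in each. The count of 7 came from Louvain and from random seed 1. In these settings the IL-1β DATP-like class held 434 and 468 cells and the IL-1β AT1-like class 0 and 1. The IL-1β AT1-like cluster had taken the DATP name there, so the 5 alternatives do not compare the same kinds of cells. No share of all genes past 1.5-fold is given for this comparison or under any alternative setting. Such counts therefore cannot be read as more than all genes would show.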
